A study of Mus musculus with 2 samples.

Results

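Proliferins are secreted glycoprotein hormones of the mouse prolactin family, encoded by the near-identical genes Prl2c2, Prl2c3, Prl2c4 and Prl2c5. Their RNA was read on 2 Agilent whole-genome mouse arrays in RAW 264.7, an established macrophage-like mouse cell line from which osteoclast-like cells form under the cytokine RANKL. Members were the non-control probes named Prl2c2, Prl2c3, Prl2c4 or Prl2c5, or by the older names Plf, Plf2, Mrpplf3 and Mrpplf4. That gave 5 of 41171 probes under 2 of 28780 names, 3 probes named Plf2 (now Prl2c3) and 2 named Mrpplf4 (now Prl2c5). No probe carried Prl2c2 or Prl2c4 as its name. The genes were chosen by their higher signal on the RCCS array than on the control array, so that difference is given as a description and supports nothing.

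The 1 array labelled control came from RAW 264.7 cells kept at ground level, and the 1 array labelled RCCS from RAW 264.7 cells held for 24 h in a rotary cell culture system, a rotating vessel used to model microgravity. RANKL treatment was 80 ng/ml over 24 h, and the protocol text, the same for both samples, does not settle whether the control cells received it. Medium with serum was common to both, and the labels name no genotype change, no clone and no number of cultures behind an array. With 1 array per group there is no replicate check, no test and no p-value. Errors below are the scanner software's spot errors and do not cover the spread between cultures. In RNA of a whole culture, more cells with a transcript and more transcript per cell cannot be told apart.

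Proliferin was found as a transcript that appears when resting mouse fibroblasts are given serum or growth factors, and in the animal it is made mainly by trophoblast giant cells of the placenta. The secreted protein carries mannose 6-phosphate, binds the cation-independent mannose 6-phosphate receptor Igf2r, and stimulates growth of blood vessels. The proliferin-related protein Prl7d1 (Plfr) opposes that vessel growth. The proliferin promoter is a classical model of gene control at a site shared by the transcription factor AP-1 and the glucocorticoid receptor.

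The 250 bases before the transcription start are shown for Prl2c3, Prl2c5 and Prl7d1. Prl7d1 was included because its probe stayed dim, at 5.08 on the control and 10.4 on the RCCS array. The proliferin probes read 172 to 2847 on the RCCS array. There the brightest probes of Prl2c3 and Prl2c5 were alike, at 2847 and 2814. These windows of 250 bases were taken from RefSeq on GRCm38.p6 and are written 5′ to 3′. Capitals mark bases of Prl2c5 and Prl7d1 that differ from, or are inserted against, the aligned Prl2c3 window.
Prl2c3, chr13:12800080-12800329, minus strand: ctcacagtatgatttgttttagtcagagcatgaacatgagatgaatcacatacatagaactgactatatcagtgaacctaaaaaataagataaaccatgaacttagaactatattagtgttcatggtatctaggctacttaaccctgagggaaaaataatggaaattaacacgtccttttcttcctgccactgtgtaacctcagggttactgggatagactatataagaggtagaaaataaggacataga
Prl2c5, chr13:13182466-13182715, plus strand: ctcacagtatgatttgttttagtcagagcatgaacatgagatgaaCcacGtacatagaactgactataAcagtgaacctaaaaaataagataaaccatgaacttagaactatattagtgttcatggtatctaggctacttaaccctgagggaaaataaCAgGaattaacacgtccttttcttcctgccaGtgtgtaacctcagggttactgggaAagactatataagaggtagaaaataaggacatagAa
Prl7d1, chr13:27716737-27716986, minus strand: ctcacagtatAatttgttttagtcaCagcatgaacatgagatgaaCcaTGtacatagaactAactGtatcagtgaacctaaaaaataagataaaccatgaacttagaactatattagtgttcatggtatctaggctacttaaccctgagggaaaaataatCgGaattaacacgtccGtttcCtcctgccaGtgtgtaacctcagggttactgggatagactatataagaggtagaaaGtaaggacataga

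The Prl2c3 and Prl2c5 windows were identical over 96.0% of 251 aligned columns, with 8 substitutions and 2 gap columns. Prl7d1 was 94.8% identical to Prl2c3, with 13 substitutions and 0 gaps, and 94.4% identical to Prl2c5. Windows of other prolactin family genes lay further away, with 54.2% for Prl8a9 next after Prl7d1 and 47.5% at the lowest. The AP-1 motif TGANTCA, which reads the same on both strands, had 1 match in the Prl2c3 window, starting 209 bases before the start. The Prl2c5 and Prl7d1 windows had 0 matches, since capitals fall within the stretch that matches in Prl2c3. That stretch reads TGAATCA, and N stands for any base. Other forms of an AP-1 site were not searched, so 0 matches do not show that a window lacks such a site. The TATA-box letters TATATAA were found in all 3 windows, 30 bases before the start in Prl2c3 and Prl7d1 and 31 bases before it in Prl2c5. Of 32851 windows of this length in the RefSeq table, 6.75% held TGANTCA and 3.04% held TATATAA on either strand. Among 23 windows of 20 other prolactin family genes, Prl7d1 included, 6 held TGANTCA and 5 held TATATAA. Both are matches of letters and do not show binding.

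All 5 proliferin probes had higher signals on the RCCS array, and 4 of them went from near the detection limit on the control array to a bright signal on the RCCS array. Signals are the scanner software's processed intensities with background subtracted. On the RCCS array A_52_P511450 (1528) and A_52_P84814 (2072) exceeded their raw means of 1451 and 1937, while the other proliferin probes lay below theirs. Background subtraction was therefore not the only step of that software. Log2 ratios are RCCS minus control after each array was divided by its own 75th percentile, 849 on the control and 966 on the RCCS array. The lowest signal that the scanner software called well above background was 24.2 on the control and 21.2 on the RCCS array. Of 153 negative control spots, which carry no mouse sequence, 1 on the control array was as bright as any of these probes there, and 0 on the RCCS array.

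Probe A_52_P619248, named Mrpplf4, had a signal of 49.2 ± 7.17 (spot error) on the control and 2814 ± 281 on the RCCS array. Its log2 ratio was 5.65 with a 95% half-width of 0.50, or 50.3-fold. It is the only proliferin probe for which the file lists a single RefSeq transcript, NM_181852 of Prl2c5, at 1535003 to 1535062 of the unplaced sequence chrUn_random in the file's coordinates. For those coordinates the build was not stated in any source read here.

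Probe A_52_P511450, also named Mrpplf4, lay 37 bases away at 1534906 to 1534965 of chrUn_random. Its signal was 31.6 ± 6.95 on the control and 1528 ± 153 on the RCCS array, a log2 ratio of 5.41 with a half-width of 0.68, or 42.5-fold. The file lists 4 transcripts for it, so its signal cannot be given to Prl2c5 alone. The log2 ratios of these 2 probes differed by 0.24 with a half-width of 0.85, which is within spot error.

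Probe A_51_P312779, named Plf2, lay at 1010844 to 1010903 of chrUn_random. Its signal was 54.2 ± 7.46 on the control and 2847 ± 285 on the RCCS array, a log2 ratio of 5.53 with a half-width of 0.48, or 46.2-fold. Probe A_52_P84814, also named Plf2, is listed over 1011041 to 1011975 and was not well above background on the control array, at 29.1 ± 7.03, against 2072 ± 207 on the RCCS array. Its own control signal was above the lowest signal called well above background, so it served as the bound, which gave 62.6-fold higher on the RCCS array. That bound leaves out spot error and is no firm lower limit. The 95% range from spot error was 37.5-fold to 104-fold.

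The other Plf2 probe, A_51_P312780, stood apart from these 4. It lay at 1010745 to 1010804 of chrUn_random, 39 bases from A_51_P312779, and its signal was 73.3 ± 8.97 on the control and 172 ± 17.8 on the RCCS array. Its log2 ratio was 1.05 with a half-width of 0.45, or 2.07-fold with a 95% range of 1.51 to 2.83. The log2 ratio of A_51_P312779 was larger by 4.48 with a half-width of 0.66, which exceeds spot error. The raw mean signal, before background subtraction, was 155 on the control and 257 on the RCCS array for A_51_P312780, and 136 and 3067 for A_51_P312779. The probes' own sequences were not used here, and why the 3 Plf2 probes differ was not tested.

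**Figure D1:**
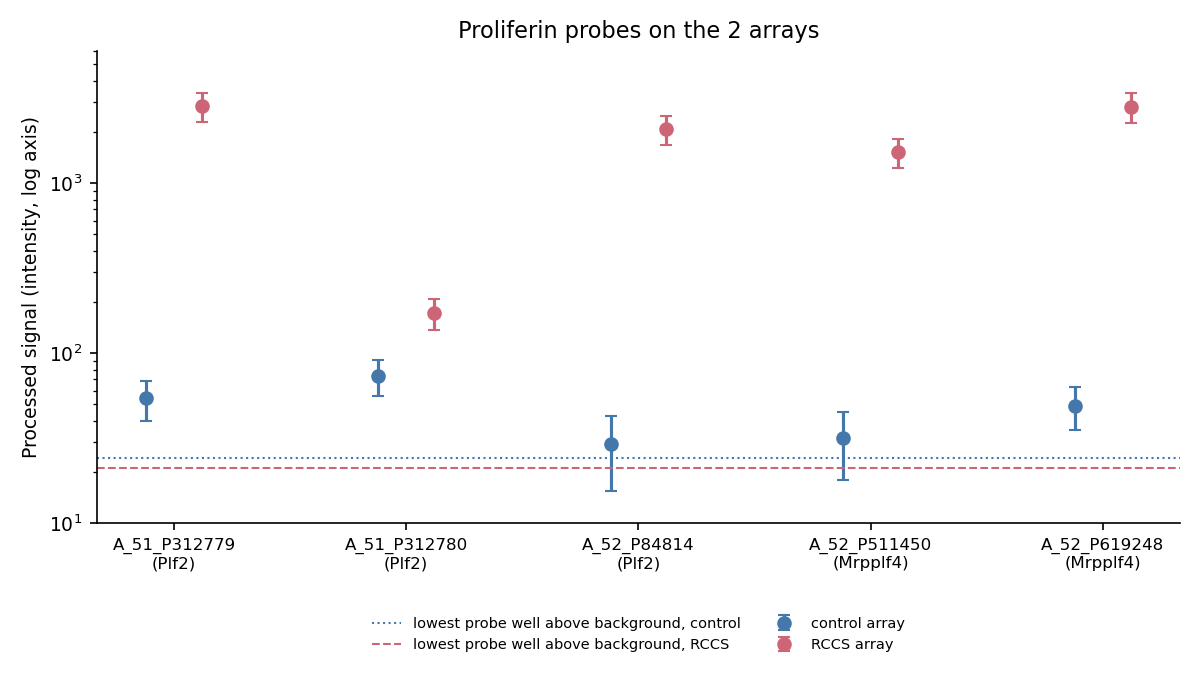
Processed signal (intensity, log axis) of the 5 proliferin probes on the control array (blue) and the RCCS array (red), with bars of 95% from the spot error and dashed or dotted lines at the lowest signal called well above background. Control signals lie between 29.1 and 73.3, and the RCCS signals of 4 probes lie between 1528 and 2847, while A_51_P312780 reaches 172.

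The 3 measured probes other than A_51_P312780 had log2 ratios of 5.41, 5.53 and 5.65, which differ by no more than 0.24 and lie within each other's spot error. A_52_P84814 has only a bound and adds no value to that comparison. The file lists NM_011118 of Prl2c3, NM_031191 of Prl2c2 and NM_011954, which has no symbol in the table used here, each on 4 of the 5 probes. NM_181852 of Prl2c5 is listed on 2. Of the 23047 probes with at least 1 transcript in that table, 370 (1.61%) list transcripts of 2 or more genes, and 4 of the 5 proliferin probes are among them. The probes therefore share targets and are not replicates of each other. Prl2c2, and the gene of the transcript without a symbol, may be part of the signal under the names Prl2c3 and Prl2c5. Whether any of the probes reads Prl2c4 was not tested.

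Averaged over measured probes, those well above background on both arrays, Prl2c5 had a log2 ratio of 5.53 with a half-width of 0.42, or 46.2-fold. Prl2c3 had 3.29 with a half-width of 0.33, or 9.77-fold, but this mean lies between probes at 1.05 and 5.53 and describes neither. The gap of 4.48 between the 2 measured Prl2c3 probes was the widest of 5092 genes with more than 1 measured probe. The next widest was 3.31, the median was 0.30, and 371 genes (7.29%) had probes more than 1 apart.

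Both proliferin genes were at least 2-fold higher on the RCCS array, as were 622 of 16022 measured genes, or 3.88%. A further 603 genes, or 3.76%, were lower by at least 2-fold, and over all measured genes the median was −0.13 on the log2 scale. Among measured probes 948 of 22849, or 4.15%, were at least 2-fold higher, and all 4 measured proliferin probes were among them. Since the members were chosen by this difference, nothing is read from those shares. Prl2c5 had the fourth highest log2 ratio of all measured genes and Prl2c3 ranked 27. At least 32-fold higher were 8 measured probes, 3 of them proliferin probes.

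**Figure D2:**
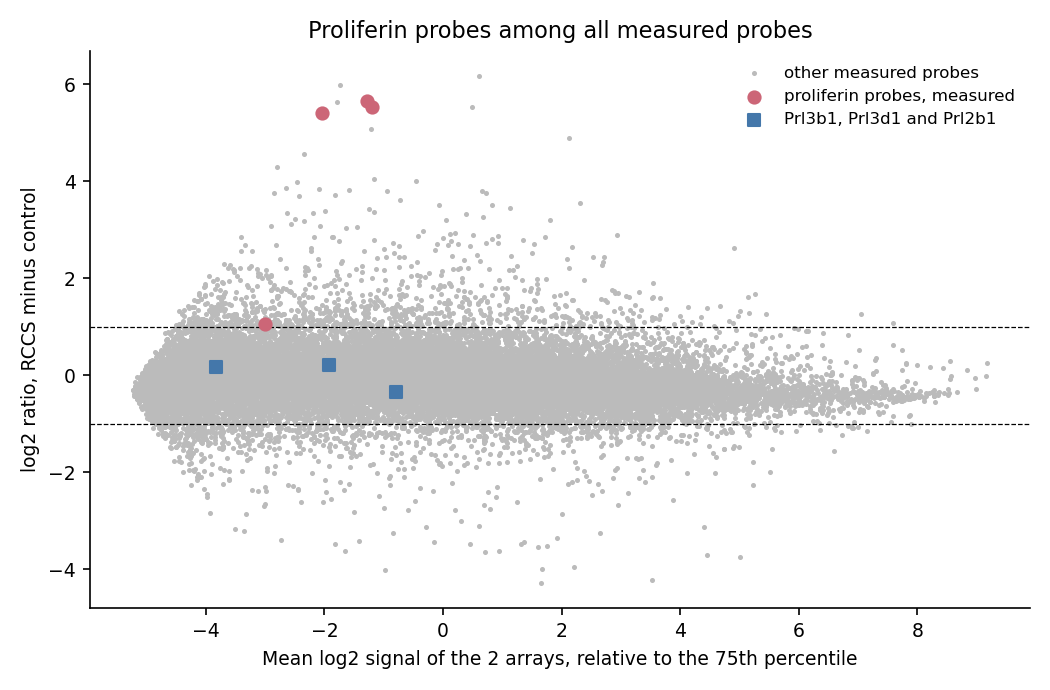
Log2 ratio of RCCS minus control against the mean log2 signal of both arrays for 22849 measured probes, with proliferin probes in red, 3 other prolactin family genes as blue squares and dashed lines at 2-fold. At log2 ratios of 5.41 to 5.65, 3 proliferin probes lie near the top, and A_51_P312780 sits at 1.05 beside the upper dashed line.

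The genes with log2 ratios nearest to Prl2c5 were taken by a likeness over only 2 arrays. Hal, which encodes histidine ammonia-lyase, went from 177 on the control array to 9247 on the RCCS array, a log2 ratio of 5.52. Pdpn, the membrane glycoprotein podoplanin, went from 34.8 to 1977, a log2 ratio of 5.64. Prss46, of the serine protease family, went from 63.0 to 2419, a log2 ratio of 5.08. Stfa3, a stefin that inhibits cysteine proteases, went from 32.1 to 2322, a log2 ratio of 5.99. Like the proliferins, 3 of these 4 genes had signals under 100 on the control array.

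The processing changed the size of the proliferin values but not their sign. Over 12 alternatives Prl2c5 ran from 4.05 to 5.84 and Prl2c3 from 2.47 to 5.53. The lowest values came from normexp, a background correction that keeps dim spots above 0 and pulls ratios on them together. Under normexp with 75th percentile scaling, A_51_P312780 had a log2 ratio of 0.56, under 2-fold, while the 3 other measured probes had 3.71 to 4.40. In the authors' deposited table, which holds signals divided by about the 75th percentile, A_51_P312779 had 0.06 on the control and 2.95 on the RCCS array. A_51_P312780 had 0.09 and 0.18 in the authors' deposited table, whose 2 decimals leave little precision at such levels.

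**Figure D3:**
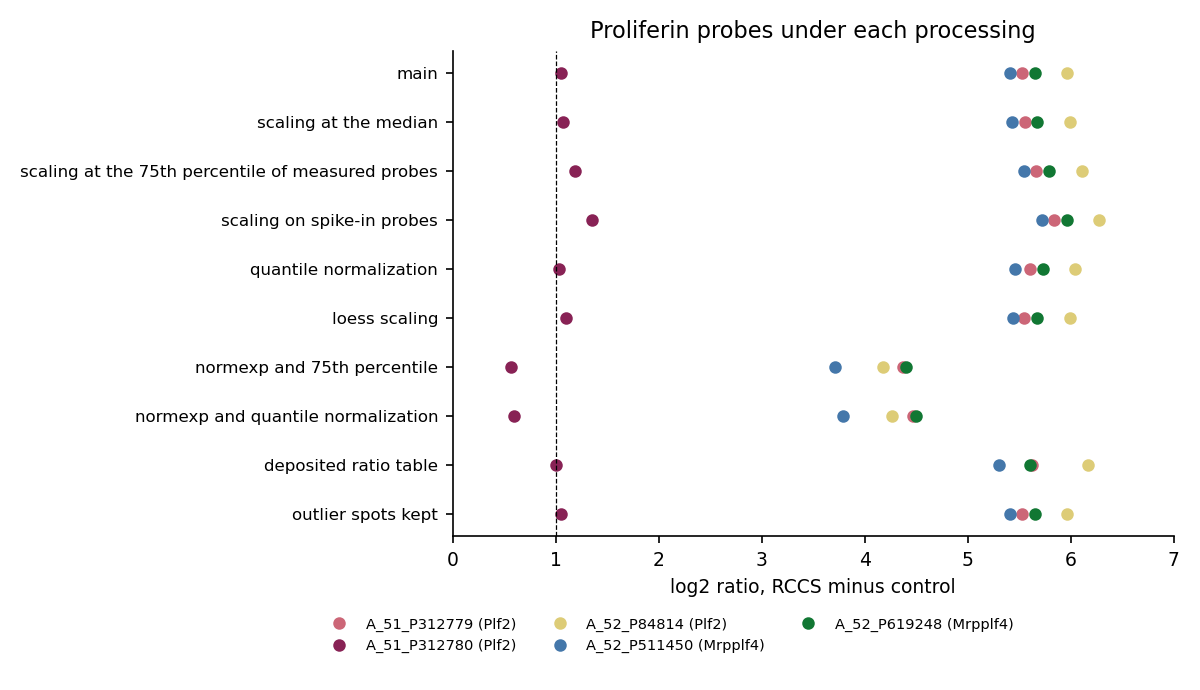
Log2 ratio, RCCS minus control, of each proliferin probe under the main processing and 9 alternatives, with a dashed line at 2-fold. The 3 other measured probes lie between 3.71 and 5.96 and A_51_P312780 between 0.56 and 1.36; the points of A_52_P84814, not well above background on the control array, stand for bounds.

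Most other genes of the prolactin and growth hormone family were not well above background on either array. Of 23 such genes, 22 had a probe and 3 were measured, with a median log2 ratio of 0.17 beside −0.13 for all measured genes. None of the 3 was past 2-fold, as few would be at the shares of 3.88% higher and 3.76% lower over all measured genes, so this count is no result about the family. Prl3b1, a placental lactogen, went from 553 to 498, a log2 ratio of −0.34. Prl3d1, the placental lactogen of giant cells, went from 208 to 275, a log2 ratio of 0.21. Prl2b1 went from 56.7 to 72.4, a log2 ratio of 0.17 whose sign turned in 2 of 11 alternatives. The half-widths of these 3 ratios were 0.40 to 0.51, so each interval includes 0.

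On the RCCS array alone, Prl8a1 (20.8 on the control and 28.3 on the RCCS array) and Prl8a2 (5.69 and 24.4) were called well above background. Prl8a1 was at least 1.03-fold higher, and no fold can be given for Prl8a2. The other 17 genes were not well above background on either array, with a highest signal of 21.6. Among them was Prl7d1, the close relative with the similar promoter window, at 5.08 on the control and 10.4 on the RCCS array. A second probe described as proliferin-related, A_52_P684878, read 4.98 and 4.48, also not well above background.

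**Figure D4:**
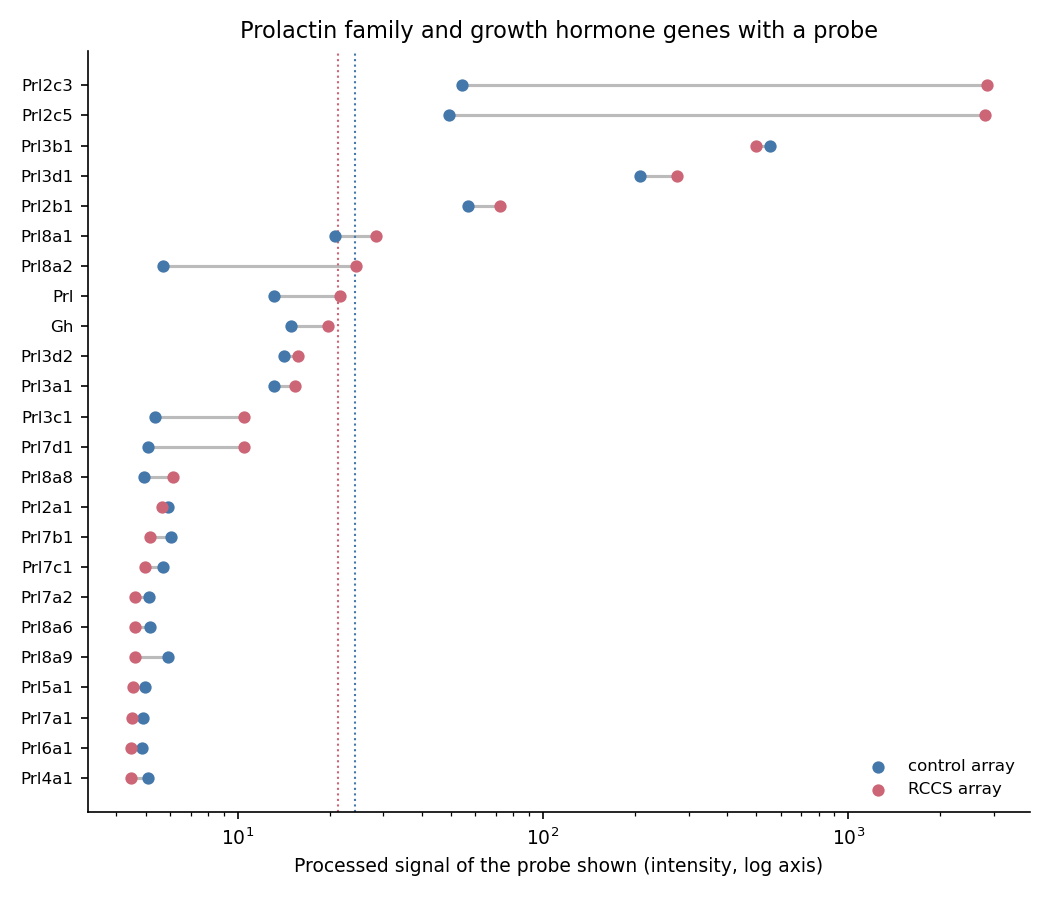
Processed signal (intensity, log axis) of the brightest probe of each prolactin family or growth hormone gene on the control array (blue) and the RCCS array (red), with dotted lines at the lowest signal called well above background. Prl2c3 and Prl2c5 span the widest distances, Prl3b1 and Prl3d1 lie above the lines on both arrays, and most other genes lie below the lines. Prl2c3 is drawn by A_51_P312779 alone, while A_51_P312780 read 73.3 on the control and 172 on the RCCS array.

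Among receptors of the prolactin type and the JAK2-STAT5 pathway they use, 9 of 11 genes were measured, with 3 at least 2-fold higher, 1 at least 2-fold lower, beside 3.88% and 3.76% of all measured genes. The median was 0.23, and −0.25 with no filter on dim probes. In the lists that follow, a count of 0 or 1 past 2-fold among at most 9 measured genes is not set apart from those shares. Socs3, a feedback inhibitor of cytokine receptors, went from 2448 to 14112, a log2 ratio of 2.34 with a half-width of 0.40. Bcl2l1, which protects against apoptosis, had a log2 ratio of 1.31, and the kinase Jak2 had 1.05, which was past 2-fold in 10 of 12 alternatives. Socs1, a further feedback inhibitor, went from 837 to 428, a log2 ratio of −1.15, past 2-fold in 9 of 12 alternatives. The prolactin receptor Prlr went from 134 to 150, a log2 ratio of −0.02. The transcription factor Stat5a had 0.46, Stat5b had −0.21 and the kinase Pim1 had −0.53; Stat5b and the growth hormone receptor Ghr, at 0.23, each changed sign in 2 alternatives. Cish, a STAT5 target that damps signalling, was above background on the RCCS array alone (11.4 and 83.3), at least 3.03-fold higher, as was Socs2 (23.1 and 23.6), for which no fold can be given. Proliferins are not known to act through the prolactin receptor, so this list describes the family's usual route.

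Along the mannose 6-phosphate route, 5 of 6 genes were measured, 0 were past 2-fold and the median was −0.11. Igf2r, the receptor that binds proliferin, was bright on both arrays, at 7140 and 10044, with a log2 ratio of 0.31 and a half-width of 0.40. The second mannose 6-phosphate receptor, M6pr, had −0.34. Of the enzymes that build and uncover the mannose 6-phosphate tag, Gnptab had 0.45 and Nagpa had −0.53. The Gnptab value is the mean of 3 measured probes that ran from −0.03 to 0.90. Igf2, another ligand of Igf2r, was not well above background.

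All 8 genes of the AP-1 subunits and the glucocorticoid receptor were measured, with 1 at least 2-fold higher, 0 at least 2-fold lower and a median of −0.31. Jun went from 183 to 435, a log2 ratio of 1.06 with a half-width of 0.14, past 2-fold in 10 of 12 alternatives. The other subunits with the largest ratios were lower on the RCCS array, with −0.95 for Fosl2, −0.56 for Junb, −0.45 for Fos and −0.37 for Fosl1. The glucocorticoid receptor Nr3c1 had 0.05, the mean of 4 probes that ran from −0.37 to 0.37.

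Of 13 mitogen ligands and receptors that act upstream of proliferin in fibroblasts or resemble those that do, 8 were measured, with 1 at least 2-fold higher and a median of −0.03, which became 0.60 when genes dimmer than 100 on both arrays were left out. That gene was Pdgfa, a chain of platelet-derived growth factor, which went from 968 to 3811, a log2 ratio of 1.79. The TGF-beta receptors Tgfbr1 and Tgfbr2 had 0.62 and 0.60, and each rested on 2 probes that differed by more than 1. Fgf2 had −0.38 and Pdgfb had −0.36. The Fgf2 value rests on 1 measured probe of 2 that read 26.6 on the control and 23.3 on the RCCS array, near the detection limit. Areg, an EGF receptor ligand, was above background on the RCCS array alone (30.6 and 55.5). Against its own control signal it was 1.59-fold higher, a bound that leaves out spot error.

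Of 13 angiogenesis genes, the process that proliferin stimulates, 8 were measured, with 1 at least 2-fold higher, 0 at least 2-fold lower and a median of 0.32. Vegfa, the main vessel growth factor, had a log2 ratio of 1.12 as the mean of 3 probes that ran from 0.66 to 1.51, and was past 2-fold in 9 of 12 alternatives. Its brightest probe went from 155 to 279, the log2 ratio of 0.66, which is under 2-fold. Placental growth factor Pgf went from 76.1 to 171, a log2 ratio of 0.98. The receptor Flt1 had 0.59, angiogenin Ang had 0.52 and Vegfb had −0.82.

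**Figure D5:**
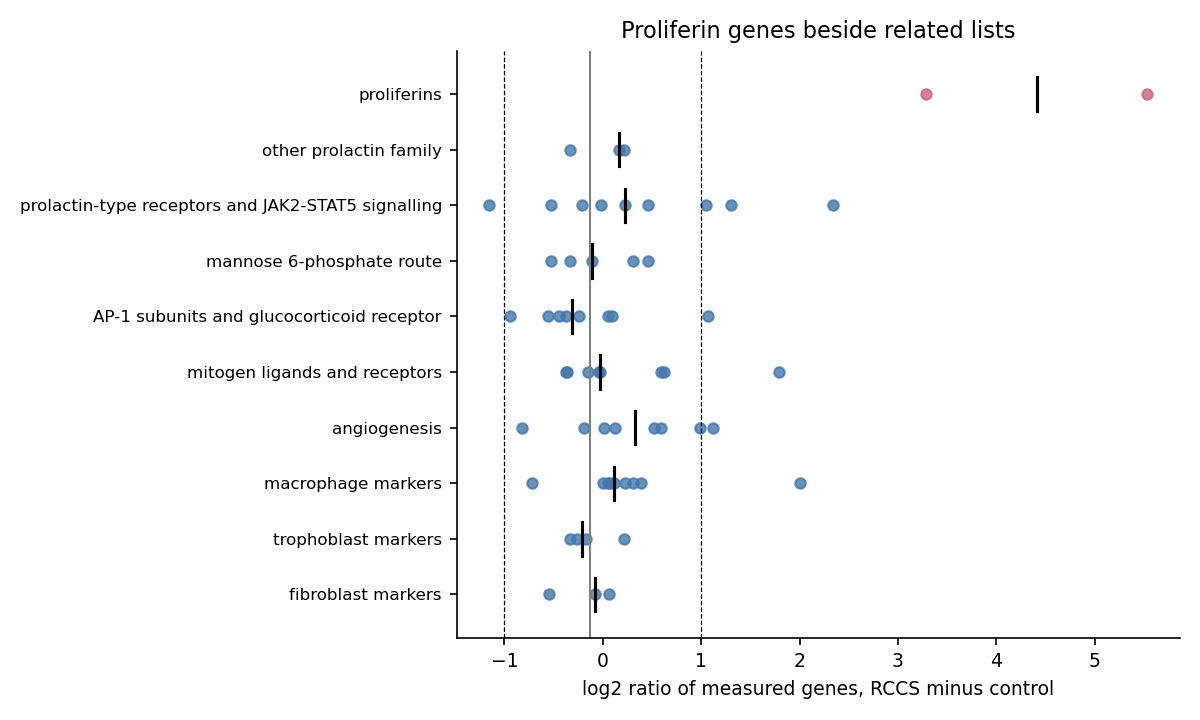
Log2 ratio, RCCS minus control, of each measured gene (points) in the proliferin group and 9 other lists, with the list median as a black bar, the median of all measured genes as a grey line and dashed lines at 2-fold. The proliferin genes lie at 3.29 and 5.53, and the highest measured gene of the other lists is Socs3 at 2.34. Genes above background on a single array are not drawn, among them Dcn with a bound of 16.8-fold higher on the RCCS array.

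The labelled cell type was checked against its markers, and other cell types known to make proliferin were looked for. All 9 macrophage markers were measured, with a median log2 ratio of 0.11. Their summed signals were 797117 on the control and 950335 on the RCCS array, of which Lyz2 alone gave 486442 and 547485. Summed signals here and below are not scaled between arrays. Itgam, an integrin subunit, went from 1289 to 5768, a log2 ratio of 2.0. Spi1, a macrophage transcription factor, was at −0.72, the leukocyte phosphatase Ptprc at 0.39, the lipopolysaccharide co-receptor Cd14 at 0.31 and Adgre1, the F4/80 antigen, at 0.23. Of 14 trophoblast markers 4 were measured (Prl3b1, Prl3d1, Ascl2 at −0.26 and Krt8 at −0.17), 0 were past 2-fold, and the summed signal was 1093 on both arrays. Most of it came from Prl3b1 (553 and 498) and Prl3d1 (208 and 275), so this sum does not speak for the other trophoblast markers. Trophoblast genes that were not well above background on either array were Tpbpa, Tpbpb, Hand1, Gcm1, Cdx2, Eomes, Elf5 and Ctsq, with a highest signal of 18.1. Krt18 was above background on the control array alone and lower by at least 1.85-fold on the other, and Psg23 was above background there alone, at 24.6.

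Of 12 fibroblast markers 3 were measured (Col1a2 at −0.55, S100a4 at −0.08 and Acta2 at 0.06), and 0 were past 2-fold. The summed signal was 415353 on the control and 430435 on the RCCS array. Nearly all of it came from S100a4 (327051 and 351727) and Acta2 (88038 and 78005), so the sum does not speak for the other markers. The matrix genes Dcn (15.2 and 462), Postn (6.27 and 55.1) and Col1a1 (13.0 and 34.3) were above background on the RCCS array alone, at least 16.8-fold, 2.0-fold and 1.25-fold higher. Fbn1 (48.8 and 4.63) was above background on the control array alone, lower by at least 2.62-fold on the other, and Col3a1 was above background on different probes of each array. Pdgfra, Pdgfrb, Thy1 and Lum were not well above background on either array, with a highest signal of 20.6. The part of these markers in the proliferin signal was not tested.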

How the data were processed

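RNA of 1 control and 1 RCCS sample was read on 1-colour arrays of the same slide. The deposited spot values are intensities made with Agilent Feature Extraction 9.5.3.1, per the file headers, with background subtracted and no scaling between arrays. A second deposited table holds a ratio per probe and array; compared with the scanner values, it holds each array's signal over a constant of 849 (control) or 964 (RCCS), with its centring and direction unstated.

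The values computed were log2(processed signal) minus each array's 75th percentile, RCCS minus control, with Python 3.11.15, pandas 2.3.3 and numpy 2.4.6. Repeated spots were averaged, and outlier spots (117 on the control array, 120 on the RCCS array) were left out; 0 were saturated. A probe counted as measured where at least 50% of its spots were well above background on both arrays: 23693 probes (57.5%) passed on the control, 24936 (60.6%) on the RCCS array and 22849 on both. A gene is the mean of its measured probes. Where a probe was above background on a single array, the fold is a bound: after scaling, that signal was divided by the probe's own signal on the other array or by the lowest signal well above background there, whichever was higher. These bounds do not include spot error. The typical gene had a 95% half-width of 0.40. For 151 probes printed repeatedly, the SD of the log2 ratio between spots had a median of 0.04 over 106 bright probes and 0.31 over 45 probes dimmer than 100 on an array.

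The mouse RefSeq table of GRCm38.p6 gave symbols to 22950 probes, and 18221 kept the file's name. Promoters were aligned with Biopython 1.88, and normexp used limma 3.58.1 in R 4.3.3. The steps that count genes were checked on simulated data. Named in the text are every proliferin probe, list genes past 2-fold, up to 4 further genes of each list with the largest ratios, and the 4 genes of regular symbol and signal of at least 100 nearest to Prl2c5. Other named genes, TATATAA and the Prl7d1 window were picked with their values in view. The members and lists were chosen with earlier results of these data known. The alternatives were other scalings, loess with a span of 0.3, normexp with an offset of 50, the deposited ratio table, other filters on dim or outlier spots, the brightest probe and thresholds of 1.5-fold and 3-fold.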

Additional observations from a re-analysis of the deposited data

How the results depend on the processing

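Neither proliferin gene changed direction in any of 12 alternatives. Prl2c5 moved beyond spot error only under normexp, to 4.05 with 75th percentile scaling and 4.14 with quantile normalization. Prl2c3 moved to 2.47 and 2.53 in the same order, to 4.18 with no filter on dim probes, to 5.53 with its brightest probe and to 5.75 without A_51_P312780 and with the dim probe kept, which was added after the values were seen, counts a bound as a value and supports no likeness to Prl2c5. Prl2c5 ranked from 3 to 11 among all genes.

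The count of genes at least 2-fold higher, 622, became 1200 on spike-in scaling, 364 under normexp with 75th percentile scaling and 1606 with no filter on dim probes; the lower count, 603, became 261, 346 and 1803. Normexp with quantile normalization gave 248 lower. A threshold of 1.5-fold gave 1559 higher and 2378 lower, and 3-fold gave 205 and 154. Of genes past 2-fold, 50.8% were higher, against 66.7% with scaling on measured probes, 82.1% on spike-in probes, 63.5% with loess and 62.6% under normexp with quantile normalization. Those scalings raised the median of all genes by 0.14, 0.31, 0.13 and 0.10. Medians of the lists of the other family members, receptors, mannose 6-phosphate, mitogen, trophoblast and fibroblast genes changed sign under some alternatives. Why values moved was not tested. The control signals of the proliferins, 29.1 to 73.3, limit how closely their ratios are known. No paired analysis was possible because each group had 1 array.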
